A study of Homo sapiens with 9 samples.

Results

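The immediate early genes examined here are the 10 genes EGR1, EGR2, EGR3, EGR4, IER2, IER3, IER5, ZFP36, KLF6 and DUSP1, which respond to serum and lie outside the AP-1 family. They were found by symbol in the deposited tables, and all 10 were present among the 31558 genes counted. The RNA came from HCT116, a human colorectal cancer line of epithelial origin, and formed 3 groups with 3 biological replicates in each. CRLM1-OE cells overexpressed the long noncoding RNA CRLM1 (LINC01767, listed as RP4-710M16.2), Ctrl cells carried the empty plasmid and Anti cells carried a plasmid with the antisense sequence of CRLM1. The authors describe the cells as transfected, and each group may be 1 stable line, since no separate cultures are described. A property of a group's cells and the effect of their insert therefore cannot be told apart. The p values measure the spread between these samples. The cells were grown in medium with serum, and the labels name no starvation or acute stimulus.

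Immediate early genes are transcribed within minutes of a growth factor, stress or calcium signal, without new protein synthesis. Signals through ERK, JNK and p38 reach serum response factor (SRF) with its ETS cofactors at CArG boxes, and CREB at cAMP response elements (CRE), in the promoters of many of them. Their mRNAs are short-lived, often through AU-rich elements in the 3' UTR. The products fall into transcription factors (the EGR zinc fingers and KLF6), the IER proteins, and factors that end the response, namely ZFP36, which binds AU-rich mRNAs and speeds their decay, and DUSP1, a phosphatase that inactivates MAP kinases.

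The 10 genes were compact. In GENCODE version 44 they spanned between 1350 bp (IER3) and 9286 bp (KLF6), with a median of 4013 bp, against a median of 31077 bp over 17071 protein-coding genes of the tables. Their canonical transcripts had between 1 exon (IER5) and 4 exons (KLF6 and DUSP1), and 23.6% of the coding genes had 4 exons or fewer. The heptamer TATTTAT, the core of an AU-rich element, was found in the 3' UTR of 5 of the 10 genes and of 32.6% of the coding genes. It occurred 4 times in IER3, 4 times in IER5, 3 times in ZFP36, 3 times in DUSP1 and 1 time in KLF6. No match was found in the 3' UTR of the 4 EGR genes and IER2.

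Promoter sequences were taken from RefSeq (GRCh38.p14), which had 10 starts for 8 of the 10 genes. IER3 and EGR3 were not among them. The 250 bases before the start are shown for 5 genes: EGR1, EGR2 and EGR4, 3 relatives that did not move alike, and IER5 and DUSP1, which had the largest differences among the abundant members. Capitals mark a CArG box, a CRE core (TGACGT), an EGR site (GCGNGGGCG), a heat shock element (GAANNTTC) or a TATA box (TATANAA), each searched on both strands. The EGR1 window lies at chr5:138465229-138465478 on the forward strand, that of the third annotated EGR2 start at chr10:62816367-62816616 on the reverse strand and that of EGR4 at chr2:73293549-73293798 on the reverse strand. The IER5 window lies at chr1:181088450-181088699 on the forward strand and the DUSP1 window at chr5:172771196-172771445 on the reverse strand.
EGR1: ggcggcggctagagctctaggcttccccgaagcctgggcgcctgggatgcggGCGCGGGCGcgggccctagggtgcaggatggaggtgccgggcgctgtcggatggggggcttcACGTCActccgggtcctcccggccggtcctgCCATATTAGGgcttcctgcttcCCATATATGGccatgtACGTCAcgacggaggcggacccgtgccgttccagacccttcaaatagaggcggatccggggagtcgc
EGR2: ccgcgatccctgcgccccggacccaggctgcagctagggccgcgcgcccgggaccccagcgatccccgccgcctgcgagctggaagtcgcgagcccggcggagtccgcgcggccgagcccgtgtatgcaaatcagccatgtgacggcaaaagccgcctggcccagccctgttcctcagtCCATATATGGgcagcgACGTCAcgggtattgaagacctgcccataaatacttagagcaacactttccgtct
EGR4: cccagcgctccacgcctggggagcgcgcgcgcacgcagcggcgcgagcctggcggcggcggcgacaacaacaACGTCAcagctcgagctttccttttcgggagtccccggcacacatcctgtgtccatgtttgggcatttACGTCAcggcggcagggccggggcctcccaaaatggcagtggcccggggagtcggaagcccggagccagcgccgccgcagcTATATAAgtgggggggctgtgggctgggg
IER5: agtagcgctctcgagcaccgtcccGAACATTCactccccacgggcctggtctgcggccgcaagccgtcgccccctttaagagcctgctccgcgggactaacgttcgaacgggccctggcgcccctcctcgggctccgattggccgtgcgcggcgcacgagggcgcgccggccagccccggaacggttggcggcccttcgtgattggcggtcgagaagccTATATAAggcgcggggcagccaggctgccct
DUSP1: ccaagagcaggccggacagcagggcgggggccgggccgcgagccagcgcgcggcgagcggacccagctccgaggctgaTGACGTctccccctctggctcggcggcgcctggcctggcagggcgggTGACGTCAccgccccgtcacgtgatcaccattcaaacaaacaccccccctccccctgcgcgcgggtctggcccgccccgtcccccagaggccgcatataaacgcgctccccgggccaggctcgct

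A CArG box was present 2 times before EGR1 and 1 time before the third EGR2 start, and in 1.16% of 35116 RefSeq promoter windows of this length. CRE cores occurred 2 times before EGR1, 2 times before EGR4, 1 time before the third EGR2 start and 3 times before DUSP1, where the last 2 overlap as a palindrome, and 7.1% of all windows held at least 1. The EGR site was found before EGR1 and KLF6 (8.41% of all windows) and the heat shock element before IER5 (5.78%). IER5 and EGR4 held the TATA box in the letters searched, TATANAA (8.41%). The DUSP1 window holds TATAAA near its end, which these letters do not match. The windows of IER2, of ZFP36 and of the other 2 EGR2 starts held none of these letters. A match describes the sequence and shows no binding.

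**Figure D1:**
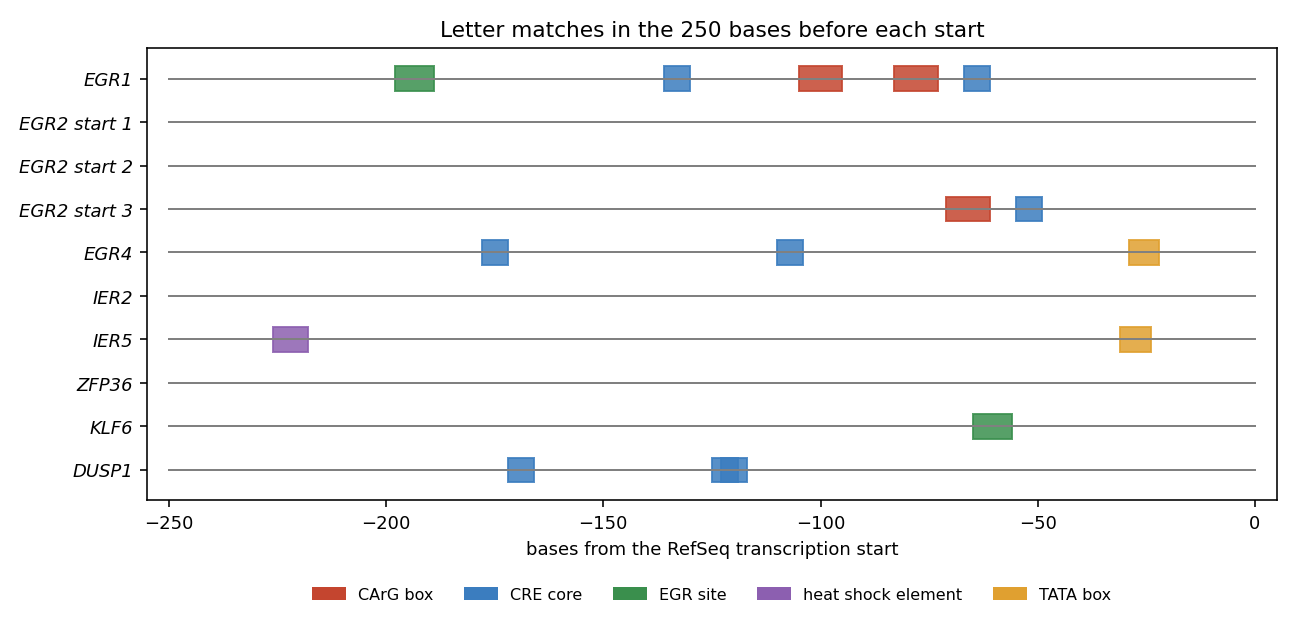
Position of each letter match in the 250 bases before 10 RefSeq starts of 8 genes. The horizontal axis gives bases from the start, each grey line is 1 start and each coloured block is 1 match. EGR1 holds 5 blocks, and the 2 first EGR2 starts, IER2 and ZFP36 hold none.

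Total counts per library lay between 33302292 and 44514692, and 3 counts, the smallest signal considered, were between 0.0674 and 0.0901 CPM (counts scaled to a common library total), which covers counting error only. CRLM1 had 32751 to 38704 counts in the CRLM1-OE libraries and 1540 to 1951 in the Anti libraries, while the 3 Ctrl libraries had 0. Without a stated strand, the Anti counts cannot be told apart from reads of the antisense insert. The summed FPKM (fragments scaled for exon length and depth) of 6 epithelial markers was 5010 to 5140 in CRLM1-OE, 5600 to 5640 in Ctrl and 4640 to 4700 in Anti. Against Ctrl, 1 of these 6 rose, CLDN4 (0.92 on the log2 scale), 4 fell, among them KRT18 (-0.996), EPCAM (-0.35) and KRT19 (-0.17, which on total counts did not pass, adjusted p = 0.064), and 1 did not pass. Against Anti, CLDN4 (2.12-fold) and KRT19 (1.31-fold) rose and the other 4 fell. Of 6 counted fibroblast, leukocyte and endothelial markers, the 5 with FPKM values summed to 2.06 to 2.5, 1.16 to 1.26 and 1.26 to 1.4 in the same order, with most of the sum from COL1A1, which was 0.75 higher in CRLM1-OE than in Ctrl on the log2 scale, and at most 6 counts per library of each of the other 5. Their part in the results was not tested.

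In Ctrl cells the levels per length spanned a wide range. IER3 had the highest level with 652.1 ± 5.76 FPKM (SD, n = 3), a value at the 99.4th percentile of 16962 coding genes. DUSP1 (80.4 ± 1.47), ZFP36 (67.7 ± 1.19), EGR1 (51.3 ± 0.343) and IER2 (49.0 ± 0.527) followed, then KLF6 (29.0 ± 1.21) and IER5 (26.9 ± 0.458), all in FPKM. EGR2 (1.34 ± 0.0907), EGR4 (0.940 ± 0.130) and EGR3 (0.417 ± 0.0451) stood near 1 FPKM or under it. No neighbours in this order overlapped among the Ctrl libraries. In CRLM1-OE cells IER5 stood above KLF6 and the libraries of EGR3 and EGR4 overlapped, while in Anti cells IER2 stood above EGR1 and the libraries of EGR2 and EGR4 overlapped.

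**Figure D2:**
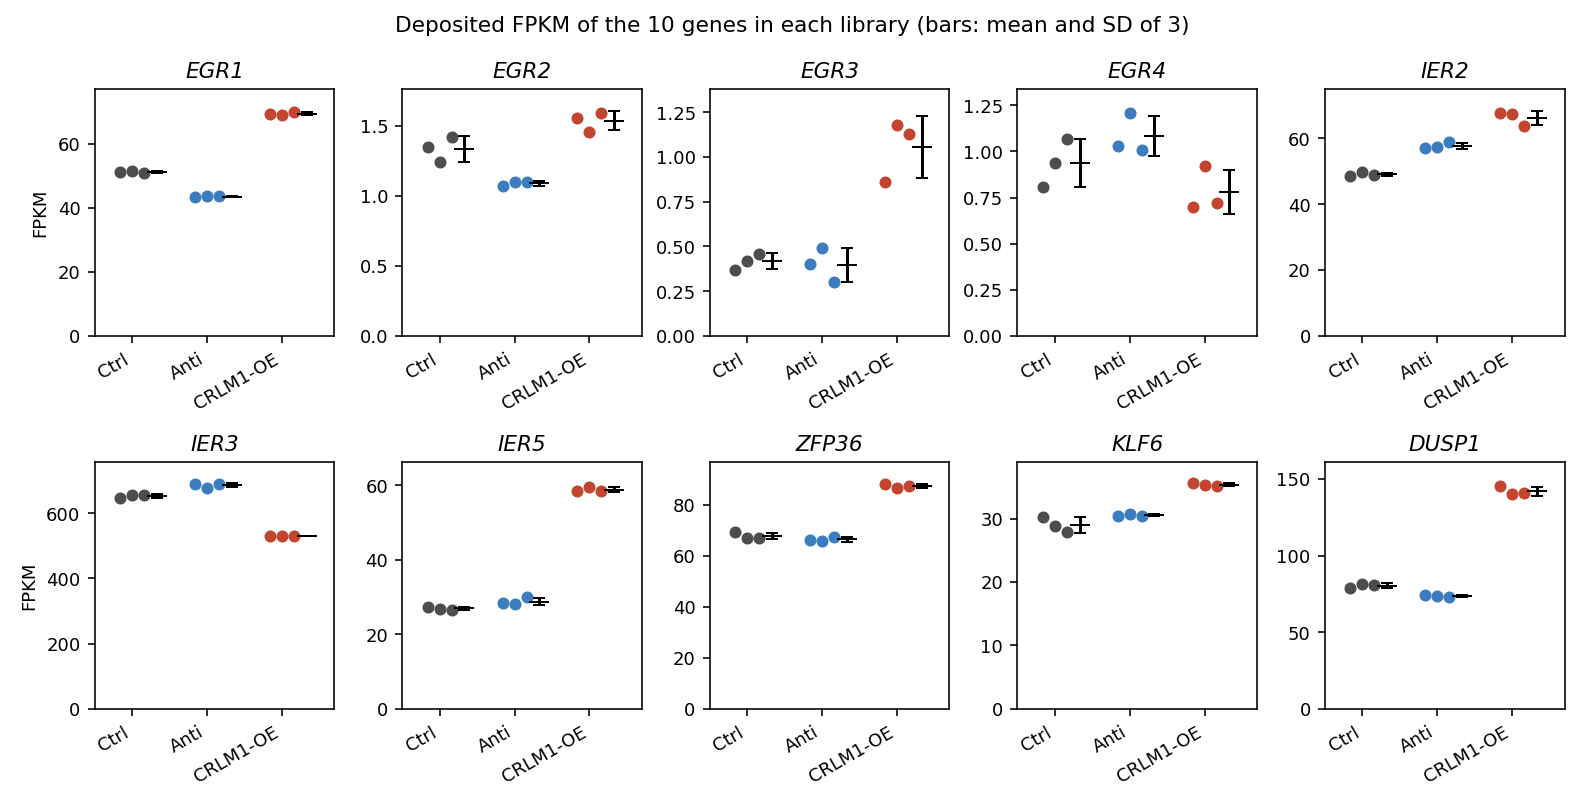
Deposited FPKM of the 10 genes in each of the 9 libraries, with a separate vertical axis from 0 for each gene. Dots are libraries, and the bar beside them is the mean with the SD of 3 libraries. IER5, DUSP1 and EGR3 are higher in CRLM1-OE than in both controls, IER3 is lower, and EGR2, EGR3 and EGR4 lie under 2 FPKM.

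CRLM1-OE was compared with Ctrl to find the genes that changed with the lncRNA. Of the 10 genes, 7 rose and 1, IER3, fell at an adjusted p of at most 0.05 (edgeR's quasi-likelihood test with Benjamini-Hochberg adjustment over 29846 genes), while EGR2 and EGR4 did not pass. Of all genes tested, 15.0% were higher and 16.8% lower at this threshold, and of the 11716 genes averaging at least 100 counts, 29.2% were higher and 38.8% lower. The median log2 fold change of the 10 genes was 0.28, and that of the genes averaging at least 100 counts was -0.045. As differentially expressed genes (DEGs, also at a fold change of at least 2), EGR3 and IER5 were called, both higher, beside 2.5% of all genes called higher and 0.915% called lower. The call of IER5 stood at the threshold and was lost in the fit of all 9 samples, where its log2 fold change was 0.995. In bulk RNA, fewer cells of a kind and less RNA per cell cannot be told apart.

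The second control gave the same directions for these 8 genes. Against Anti, 8 of the 10 genes rose and 2, IER3 and EGR4, fell, beside 17.1% of 30183 genes higher and 18.5% lower, or 33.9% and 40.2% of the genes averaging at least 100 counts. The median was 0.40 on the log2 scale over the 10 genes and -0.036 over the genes averaging at least 100 counts. EGR3 alone among the 10 was a DEG, with 3.09% of all genes called higher and 2.56% called lower. Both comparisons use the CRLM1-OE libraries, so they are not independent.

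**Figure D3:**
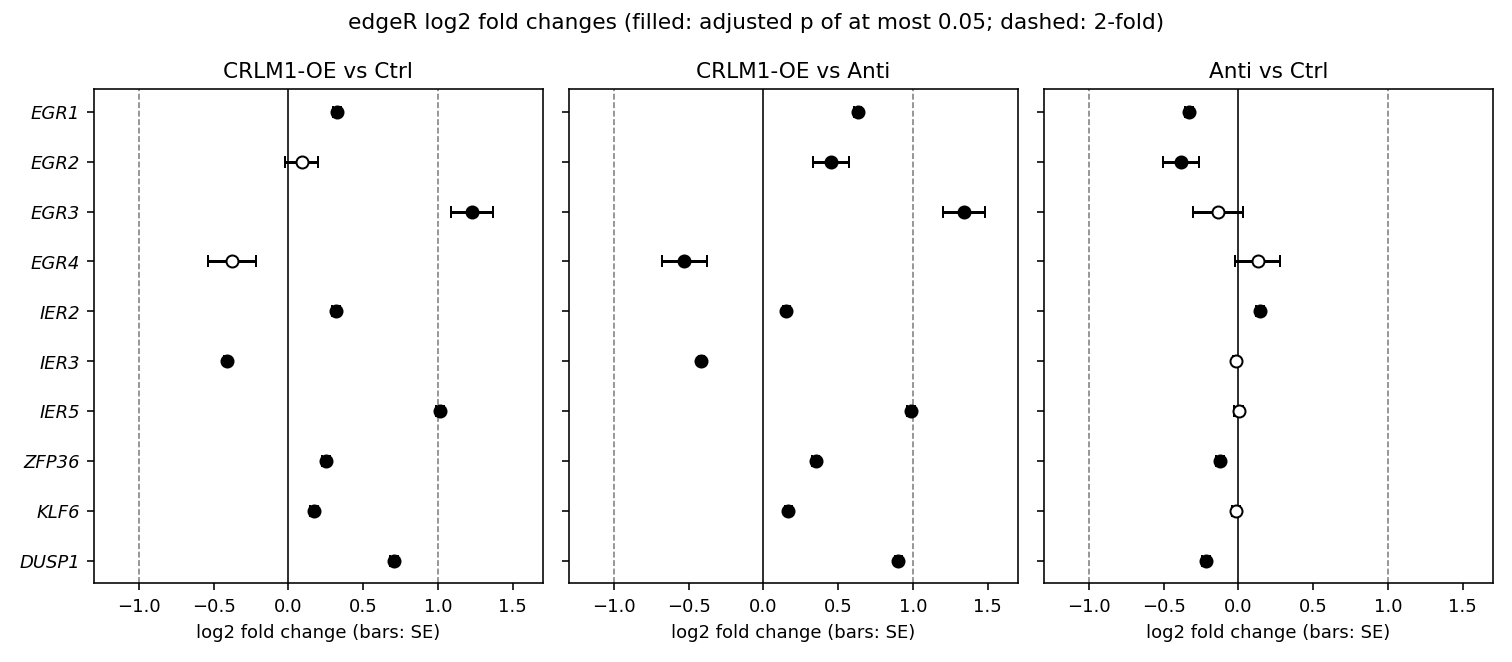
The edgeR log2 fold change of each gene in 3 comparisons, with bars of 1 SE. Filled dots have an adjusted p of at most 0.05 and dashed lines mark 2-fold. In both comparisons with CRLM1-OE, EGR3, IER5 and DUSP1 lie farthest to the right and IER3 and EGR4 to the left of 0.

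EGR1, the zinc finger factor that binds GC-rich sites and gives the family its name, rose against both controls. Its FPKM was 69.37, 69.03 and 69.97 in the CRLM1-OE libraries, 51.17, 51.66 and 51.0 in Ctrl, and 43.26, 43.56 and 43.69 in Anti. The 3 groups did not overlap, with CRLM1-OE highest and Anti lowest. On the log2 scale it rose by 0.32 (SE 0.026, adjusted p = 4.6e-35) against Ctrl and by 0.63 (SE 0.024, adjusted p = 2.4e-153) against Anti. EGR1 lies on the forward strand of chromosome 5 from 138465479 to 138469303 (GRCh38), and its promoter was the one with 2 CArG boxes.

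EGR3, a close relative of EGR1 known from the development of muscle spindles, had the largest fold change of the 10 genes at a low level. Counts were 183, 200 and 219 in CRLM1-OE, 82, 76 and 81 in Ctrl, and 82, 93 and 54 in Anti. Every CRLM1-OE library was above every control library, while Anti and Ctrl overlapped. In FPKM the means were 1.06 ± 0.172, 0.417 ± 0.0451 and 0.397 ± 0.0950 (SD, n = 3 each), a spread of 10.8% to 24.0% of the mean, beside 0.507% to 0.685% for EGR1. Its log2 fold change was 1.23 (SE 0.14, adjusted p = 3.6e-18) against Ctrl and 1.34 (SE 0.14, adjusted p = 1.3e-21) against Anti. On the log2(FPKM + 1) scale, which compresses low values, the log2 fold changes were 0.54 (adjusted p = 0.0029 by limma) and 0.56 (adjusted p = 0.0032 by limma). An unnamed gene overlaps EGR3 on the other strand, and it is not stated whether reads were counted by strand.

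EGR2, known from myelination of Schwann cells and from T cell anergy, did not pass against Ctrl. Its counts were 235, 174 and 219 in CRLM1-OE, 212, 159 and 176 in Ctrl, and 153, 148 and 138 in Anti. In FPKM these were 1.56, 1.46 and 1.59, 1.35, 1.24 and 1.42, and 1.07, 1.1 and 1.1, so the groups did not overlap on that scale. Against Ctrl its log2 fold change was 0.09 (SE 0.11, adjusted p = 0.57), and over the alternative settings it ranged from 0.05 to 0.23 with adjusted p of 0.075 to 0.81. Against Anti it was 0.45 (SE 0.12, adjusted p = 0.00043). An unnamed gene overlaps EGR2 on the same strand.

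EGR4, the member known from male germ cell development, had the opposite sign to EGR1 and EGR3. Counts were 80, 83 and 75 in CRLM1-OE, 96, 91 and 100 in Ctrl, and 112, 122 and 96 in Anti. In FPKM (0.7, 0.92 and 0.72, against 0.81, 0.94 and 1.07 in Ctrl) CRLM1-OE and Ctrl overlapped, whereas Anti (1.03, 1.21 and 1.01) lay above CRLM1-OE. The log2 fold change was -0.38 against Ctrl (SE 0.16, adjusted p = 0.058) and -0.53 against Anti (SE 0.15, adjusted p = 0.0022). Without CRLM1-OE replicate 2 or without Ctrl replicate 1 the value against Ctrl was -0.50 (adjusted p = 0.019) or -0.48 (adjusted p = 0.025). Over all settings it ranged from -0.50 to -0.12, with adjusted p up to 0.34, for example -0.26 (adjusted p = 0.32) without Ctrl replicate 3 and -0.24 (adjusted p = 0.30) on total counts. Against Anti, limma with an offset of 0.1 or 1 FPKM gave adjusted p of 0.052 or 0.059. EGR4 shared 2 CRE cores with EGR1 in the windows printed above and had no CArG box there.

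The 3 IER genes share a name from their rapid induction rather than 1 family, although IER2 and IER5 have a common domain at the amino end. IER5, which binds the phosphatase PP2A and the heat shock factor HSF1, had 58.44, 59.58 and 58.42 FPKM in CRLM1-OE, 27.43, 26.88 and 26.52 in Ctrl, and 28.38, 28.03 and 29.89 in Anti. The CRLM1-OE libraries lay far above both controls, which were close to each other. On the log2 scale IER5 rose by 1.01 (SE 0.026) against Ctrl and by 0.99 (SE 0.024) against Anti, both with an adjusted p of 1e-300, the smallest value written. The folds of 2.02 and 1.98 fall on either side of the DEG threshold of 2, and whether they differ was not tested. Against Anti, IER5 was over 2-fold on total counts (1.05), with limma (1.01 to 1.03) and without Anti replicate 3 (1.01). IER5 is a single exon of 4201 bp on chromosome 1, from 181088700 to 181092900 on the forward strand of GRCh38.

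IER2, a nuclear protein with roles in cell motility, rose less. It had 67.59, 67.26 and 63.76 FPKM in CRLM1-OE, 48.61, 49.63 and 48.89 in Ctrl, and 57.03, 57.23 and 58.83 in Anti. The groups did not overlap, and Anti lay between the others. The log2 fold change was 0.32 (SE 0.026, adjusted p = 6.5e-33) against Ctrl and 0.15 (SE 0.023, adjusted p = 2.1e-10) against Anti. At its locus 2 unnamed genes overlap it on the other strand, so their reads cannot be told apart without strand.

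IER3, a survival factor also known as IEX-1 that acts on ERK and NF-kappaB signalling, was the one abundant member that fell. Its FPKM was 530.07, 531.15 and 528.92 in CRLM1-OE, 645.43, 655.65 and 655.14 in Ctrl, and 689.45, 678.15 and 689.18 in Anti. Each CRLM1-OE library was below each control library. IER3 had a log2 fold change of -0.41 (SE 0.019, adjusted p = 2.3e-99) against Ctrl and -0.42 (SE 0.017, adjusted p = 3.5e-136) against Anti. Its lowest and highest values over the alternative settings were -0.43 and -0.27 against Ctrl, and -0.42 and -0.36 against Anti.

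Because IER3 was so abundant, it set much of the sum of the 10 genes. IER3 gave 34.6% to 34.9% of their counts in the CRLM1-OE libraries, 49.1% to 49.9% in Ctrl and 50.5% to 51.0% in Anti. Together the 10 genes took 0.236% to 0.237% of the CRLM1-OE libraries, 0.2% to 0.202% of Ctrl and 0.206% to 0.21% of Anti. IER3 lies on chromosome 6 from 30743199 to 30744548 on the reverse strand (GRCh38), where IER3-AS1 and HCG20 overlap it on the other strand, and reads of these genes cannot be told apart without strand.

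Among the genes that end the response, DUSP1 (also MKP-1) had the clearest difference. It had 145.29, 139.92 and 140.86 FPKM in CRLM1-OE, 78.75, 81.43 and 81.12 in Ctrl, and 73.98, 73.72 and 73.19 in Anti. The groups did not overlap, and the gap from CRLM1-OE to Ctrl was many times the spread within either group. Its log2 fold change was 0.71 (SE 0.025, adjusted p = 2.4e-174) against Ctrl and 0.90 (SE 0.023, adjusted p = 1e-300) against Anti. DUSP1 lies on chromosome 5 from 172768096 to 172771195 on the reverse strand (GRCh38), with an unnamed gene overlapping on the other strand.

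ZFP36 (tristetraprolin) had 88.22, 86.43 and 87.06 FPKM in CRLM1-OE, 69.08, 67.01 and 67.02 in Ctrl, and 65.99, 65.66 and 67.46 in Anti. CRLM1-OE lay above both controls, which overlapped. ZFP36 rose by 0.25 on the log2 scale (SE 0.027, adjusted p = 2.2e-19) against Ctrl and by 0.35 (SE 0.025, adjusted p = 3.9e-44) against Anti. KLF6, a zinc finger factor of the Krüppel-like family known as a tumour suppressor, differed least among the members that rose against Ctrl. It had 35.6, 35.25 and 35.17 FPKM in CRLM1-OE, 30.27, 28.88 and 27.86 in Ctrl, and 30.45, 30.75 and 30.4 in Anti. CRLM1-OE again lay above both controls, with log2 fold changes of 0.17 (SE 0.025, adjusted p = 2.1e-10) and 0.17 (SE 0.023, adjusted p = 3.1e-12). On total counts the values against Ctrl were larger, at 0.31 for KLF6 and 0.39 for ZFP36.

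The 2 controls were compared with each other to see how far they differed. From Ctrl to Anti, EGR1, EGR2, ZFP36 and DUSP1 fell and IER2 rose, while EGR3, EGR4, IER3, IER5 and KLF6 did not pass, beside 11.5% of 29714 genes higher and 12.2% lower, or 25.3% and 28.9% of the genes averaging at least 100 counts. The log2 fold change was -0.33 for EGR1 (SE 0.027, adjusted p = 1e-32), -0.38 for EGR2 (SE 0.12, adjusted p = 0.0086), -0.22 for DUSP1 (SE 0.026, adjusted p = 3.8e-15), -0.12 for ZFP36 (SE 0.028, adjusted p = 9.6e-05) and 0.14 for IER2 (SE 0.026, adjusted p = 5.1e-07). None of the 10 genes was a DEG here, where 0.683% of all genes were called higher and 0.38% lower. EGR1, EGR2 and DUSP1 had lower levels in Anti than in Ctrl and higher levels in CRLM1-OE than in Anti.

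These small differences depended on the scaling of the libraries. The TMM factors of edgeR were 1.046 to 1.053 in CRLM1-OE, 0.9448 to 0.9547 in Ctrl and 1.0 to 1.01 in Anti. With total counts in their place, the median of the genes averaging at least 100 counts moved from -0.045 to 0.096 in CRLM1-OE vs Ctrl, from -0.036 to 0.023 in CRLM1-OE vs Anti and from -0.0067 to 0.098 in Anti vs Ctrl. On total counts IER3 (0.086, adjusted p = 1.6e-05), KLF6 (0.087, adjusted p = 0.0032) and IER5 (0.11, adjusted p = 0.00093) were higher in Anti than in Ctrl, and the log2 fold change of ZFP36 was -0.016 (adjusted p = 0.73). EGR2 did not pass on total counts (-0.28, adjusted p = 0.081) or without Ctrl replicate 3 (-0.33, adjusted p = 0.056). EGR1, DUSP1 and IER2 passed in the same direction under both scalings. In the 2 comparisons with CRLM1-OE, no member changed direction under any setting run.

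**Figure D4:**
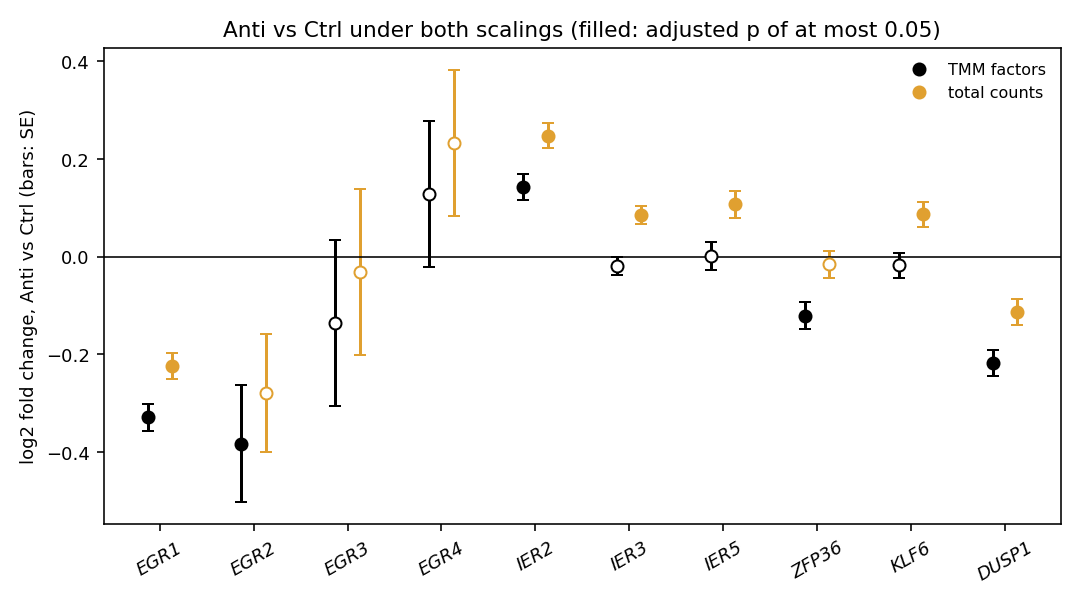
Log2 fold change of each gene in Anti vs Ctrl with TMM factors (black) and with total counts (orange), bars of 1 SE, filled where the adjusted p was at most 0.05. Total counts move each gene up by about the same amount, so that IER3 and KLF6 change from just under 0 to above it.

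Other genes of the pathway were taken from lists of known members. SRF itself rose against Ctrl (log2 0.45, SE 0.028, adjusted p = 1.6e-58) and against Anti (log2 0.45, SE 0.025, adjusted p = 1.6e-69). Of the 6 genes for SRF and its cofactors, 2 rose and 4 fell against Ctrl, among them MKL1, an actin-regulated cofactor (0.18), and the ETS cofactors ELK1 (-0.28) and ELK4 (-0.23). The shares over all genes given above stand beside this and the next lists. The median of the 6 was -0.15 with TMM factors and -0.014 on total counts, where ELK4 (-0.091, adjusted p = 0.14) did not pass. Against Anti, 1 of the 6 rose, 3 fell, among them ELK1 (-0.205) and ELK4 (-0.54), and 2 did not pass. MKL1 did not pass against Anti (-0.025, adjusted p = 0.73), and it rose from Ctrl to Anti (0.18). The EGR corepressors moved apart against Ctrl, with NAB1 at 0.22 (adjusted p = 0.00062) and NAB2 at -0.17 (adjusted p = 3.1e-06), and neither passed against Anti. On total counts NAB2 did not pass against Ctrl (-0.025, adjusted p = 0.60).

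Of 16 kinases of the ERK, JNK and p38 pathways, 4 rose, 8 fell and 4 did not pass against Ctrl, beside the 29.2% higher and 38.8% lower of all genes averaging at least 100 counts, with a median of -0.087 that became 0.054 on total counts. The 2 lowest were BRAF (-0.81), which activates MEK, and MAPK9 (-0.33), a JNK. The 2 highest were MAPK8 (0.36), the other main JNK, and RPS6KA4 (0.37), a nuclear kinase of histones and CREB. Against Anti, 5 rose, 7 fell and 4 did not pass. There MAPK8 (0.57), BRAF (-0.76) and MAPK9 (-0.32) passed in the same direction as against Ctrl. RPS6KA4 did not pass against Anti (-0.013, adjusted p = 0.82), and it rose from Ctrl to Anti (0.36).

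Among 28 other immediate early genes, 18 rose, 9 fell and 1 did not pass against Ctrl, with a median of 0.31, close to the 0.28 of the 10 genes, beside 29.2% higher and 38.8% lower of all genes averaging at least 100 counts. Against Anti, 17 rose, 7 fell and 4 did not pass (median 0.47), beside 33.9% and 40.2%. From Ctrl to Anti, 3 rose, 18 fell and 7 did not pass (median -0.19, or -0.084 on total counts), beside 25.3% and 28.9%. FOS and FOSB, partners of JUN in AP-1, were highest against Ctrl with log2 fold changes of 2.10 (SE 0.038) and 2.32 (SE 0.066), and FOSL1 (-0.72) and PHLDA1 (-0.69) were lowest. The mean FPKM of FOS was 37.7 (CRLM1-OE), 8.13 (Ctrl) and 7.31 (Anti). No member of the 10 reached the fold changes of FOS and FOSB.

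Relatives in the same protein families went both ways. Of 18 counted relatives, 7 rose, 7 fell and 4 did not pass against Ctrl, with a median of -0.028 (0.11 on total counts). IER5L, the closest relative of IER5, fell from 40.5 FPKM in Ctrl to 23.2 in CRLM1-OE (log2 -0.92, SE 0.032, adjusted p = 5.3e-179) and stood at 48.4 in Anti (log2 -1.10 against it). ZFP36L1, a further AU-rich binder, fell by 0.35 on the log2 scale against Ctrl (SE 0.022, adjusted p = 7.1e-55). ZFP36 and another of its relatives in the list rose against Ctrl, the latter without passing against Anti. The 2 highest relatives against Ctrl were the phosphatases DUSP2 (1.67, SE 0.056) and DUSP8 (0.86, SE 0.044), which rose as DUSP1 did. Other DUSP genes of the list did not all rise, and some did not pass or fell.

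Known targets of 2 of the members were also counted. Of 11 EGR1 targets, 4 rose, 6 fell and 1 did not pass against Ctrl (median -0.17, or -0.025 on total counts), with the matrix genes THBS1 (1.03) and FN1 (0.66) highest and F3, tissue factor (-0.64), and PDGFB (-0.44) lowest. Of 11 mRNAs bound by ZFP36, 1 rose, 7 fell and 3 did not pass against Ctrl, with a median of -0.58 (-0.44 on total counts), where 29.2% of all genes averaging at least 100 counts were higher and 38.8% lower. Against Anti, 1 rose, 8 fell and 2 did not pass (median -0.62), beside 33.9% and 40.2%, and from Ctrl to Anti 7 rose, 1 fell and 3 did not pass (median 0.34), beside 25.3% and 28.9%. The chemokine CXCL1 had a mean FPKM of 8.74 (CRLM1-OE), 18.6 (Ctrl) and 29.6 (Anti), a log2 fold change of -1.20 against Ctrl (SE 0.066, adjusted p = 3.0e-71). TNF, with 3 to 6 counts per CRLM1-OE library, 18 to 20 per Ctrl library and 38 to 63 per Anti library, was lowest at -2.31 (SE 0.48, adjusted p = 9.7e-06). LIF, a cytokine (-0.25), fell, and PIM1, a kinase (0.10), was the one that rose. Some of the 11 mRNAs bound by ZFP36, TNF among them, averaged under 100 counts, so the shares beside them are not matched for level. No set test was made.

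**Figure D5:**
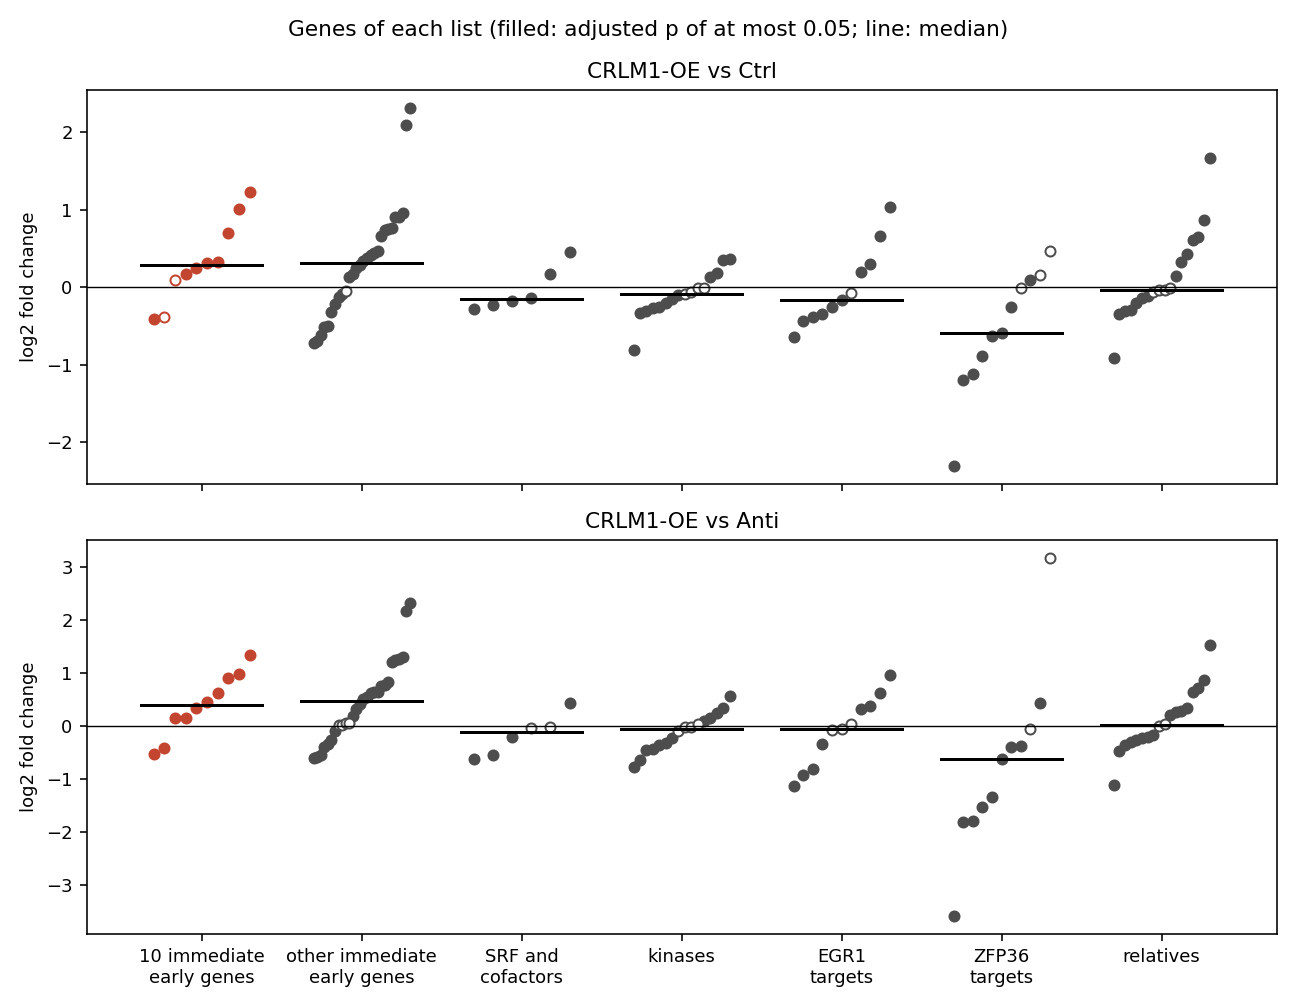
Log2 fold change of each gene in 7 lists for CRLM1-OE vs Ctrl and CRLM1-OE vs Anti, filled where the adjusted p was at most 0.05, with a line at each median. The 10 genes and the other immediate early genes have medians above 0 in both panels, and the ZFP36 targets have medians of -0.58 and -0.62.

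The genes whose pattern over the 9 libraries lay closest to EGR1 and to IER3 were found by the root mean square (RMS) difference of mean-centred log2 CPM, over 11693 genes averaging at least 100 counts. For EGR1, genes among the 5 closest were ANKRD13A (0.029), SRA1 (0.0321), DAPK3 (0.0336) and PRKD2 (0.0339). ANKRD13A had 21.9, 16.7 and 14.0 FPKM across CRLM1-OE, Ctrl and Anti, in that order. Among the 9 members averaging at least 100 counts, which leaves out EGR4, those closest to EGR1 were EGR2 (0.117) and ZFP36 (0.12), and the farthest were EGR3 (0.436) and IER3 (0.439).

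For IER3 the closest genes were NDC1 (0.0124), SHMT2 (0.015), LGALS3BP (0.017), OLA1 (0.0197) and ATF4 (0.021). ATF4, a stress-responsive transcription factor, had a mean FPKM of 192 (CRLM1-OE), 238 (Ctrl) and 254 (Anti). Each of the other members with enough counts was at least 0.277 from IER3, the value of KLF6. These values describe 9 libraries that fall into 3 groups and share 1 scaling.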

How the data were processed

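RNA-seq of 9 HCT116 samples, 3 per group by their labels, was used. The authors removed adaptors and poor bases, mapped the reads to GRCh38 with TopHat2 and deposited counts of reads per gene, not normalized, and FPKM values, scaled for exon length and mapped fragments. Both tables hold genes the authors call expressed. Whether strand was used in counting is not given in the sources used here.

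Each comparison was fitted to the counts of its own 6 samples by edgeR 4.0.16 (R 4.3.3) with TMM factors and the quasi-likelihood test, for genes with 1 count or more. A gene passed if its p, adjusted by Benjamini-Hochberg over all these genes, was at most 0.05, and DEGs also differed at least 2-fold. With 3 against 3 samples an exact permutation test cannot go below 0.1, so none was used. Log2 CPM had a prior count of 2. Alternatives were RLE factors, total counts, filterByExpr, the Wald test of DESeq2 1.42.0, limma 3.58.1 on log2(FPKM + 0.1) and log2(FPKM + 1), a fit of all 9 samples, a replicate block and leaving out each sample. The fits were tested on simulated data, except the fit of all 9 samples and those that leave out a sample.

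The 10 genes, the lists and the motifs were chosen with earlier results of these data known. All 10 are named. From each list the 2 highest and 2 lowest that passed against Ctrl are named (lists of up to 6 may be named whole), and for EGR1 and IER3 the 5 closest genes outside the 10, of which 1 is not reported here. Gene spans are from GENCODE version 44, promoters from RefSeq (GRCh38.p14). Between replicates of a group, a chi-square of the counts averaged 2.13 to 4.45 per gene. Sampling noise gives about 1 if every count is an independent fragment. Whether both reads of a pair were counted is not stated, so an excess over sampling noise is not established for every group.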

Additional observations from a re-analysis of the deposited data

How the results depend on the processing

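In CRLM1-OE vs Ctrl, 7 genes were higher and 1 lower. With a 2-fold minimum these became 2 and 0. EGR4 made a second lower gene, 2 in all, in the fit of all 9 samples (-0.40, adjusted p = 0.041) and with the replicate block (-0.38, adjusted p = 0.034), and leaving out a sample gave 1 to 2 lower genes. In CRLM1-OE vs Anti, 8 genes were higher and 2 lower, against 1 and 0 with a 2-fold minimum, and limma with an offset of 0.1 or 1 FPKM left 1 lower gene, since EGR4 had adjusted p of 0.052 and 0.059. In Anti vs Ctrl, 1 higher and 4 lower genes became 4 and 2 on total counts, 2 and 2 with limma at either offset, and 0 and 0 with a 2-fold minimum. With an FPKM of at least 1 in 3 samples, limma gave 3 higher genes, and 6 against Ctrl and 7 against Anti in CRLM1-OE, since EGR3 was then not tested against either.

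Directions reversed in Anti vs Ctrl for 4 genes. IER3 was 0.0858 on total counts and 0.0723, 0.0722 and 0.0723 with the 3 limma settings (offset 0.1, offset 1, and offset 0.1 with the FPKM filter). The FPKM in the limma settings, like total counts, had no TMM factors, so these settings are not independent. KLF6 was 0.0867 and 0.0747, 0.0725 and 0.0747 under the same settings, and -0.0372 to 0.0132 with a sample left out (0.0132 without Ctrl replicate 1). EGR3 ranged from -0.311 to 0.0236 (0.0236 without Anti replicate 3). IER5 ranged from -0.0205 (without Anti replicate 3) to 0.107 (total counts, adjusted p = 0.00093). With a sample left out IER5 reached at most 0.0164, and it was -0.000205 without Ctrl replicate 3. With limma and the FPKM filter IER5 was 0.0937 (adjusted p = 0.029). The cause was not tested. Of the values of the 10 genes under alternatives, 418 kept their direction and side of the threshold, 10 lost and 6 gained the call and 12 reversed.

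Samples with the same replicate number did not deviate together (correlations of -0.0749 to 0.0782 over 9 pairs, against -0.109 to 0.144 over 18 pairs of different numbers), so the numbers do not pair the samples, and beyond EGR4 the replicate block changed no call of the 10 genes. Counts under about 250 limit EGR2, EGR3 and EGR4.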
